A study of Mus musculus with 10 samples.

Results

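Heat shock proteins and their DnaJ partners were followed in whole testes of 10 day old mice. The members were all probe sets (short groups of probes on the array that report 1 transcript) annotated to a single gene whose symbol starts with Hspa, Hspb, Hspd, Hspe, Hsph, Hsp90 or Dnaj. Hspa2, a chaperone of meiotic germ cells, was left out. This gave 121 probe sets of 60 genes among the 22690 probe sets on the array, and 94 probe sets of 50 genes were bright enough to be tested. The label of the set matched its members with 2 exceptions of name only: Hspbp1 encodes an HSP70-binding co-chaperone and Hspb11 a protein of intraflagellar transport, and neither is a small heat shock protein.

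Control mice carried the AMHCre transgene, in which the anti-Müllerian hormone promoter drives Cre recombinase in Sertoli cells, the somatic nurse cells of the tubules. In SCARKO mice the androgen response was removed from Sertoli cells by a cell-selective knockout, while other testicular cells were not targeted. Each group had 5 arrays, and each array held RNA pooled from 1 testis of each of 3 littermates, so that control and SCARKO pools formed 5 littermate pairs. The spread between arrays is therefore a spread between litters and pools, not between single mice.

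The arrays carry a genotype in the title and another in the description. In pair 5 both name the same one, whereas in pairs 1 to 4 they contradict each other. The titles were used, and every direction below rests on them. The targeted gene is not reported here. Rhox5, the homeobox gene used as a marker of androgen action in Sertoli cells, had a signal of 178 ± 61.7 in control and 9.48 ± 1.91 in SCARKO pools (SD, n = 5). Germ cell and Leydig cell markers were present in all pools, as were those of Sertoli cells, and no erythroid marker reached the tested signals. Sertoli cell markers moved with genotype: of 22, 6 fell and 3 rose (40.9% in all, against 5.69% of all tested genes). Their median log2 fold change was -0.053, and the lowest, -4.17, was also the lowest of all tested genes. Summed signals were 11110 to 12130 in control and 10500 to 11140 in SCARKO pools. Androgen response and Sertoli cell content cannot be told apart in these sums. Of 9 listed markers of epididymis and fat, 5 were on the array and only 1, Lpl, was bright enough to be tested. Lpl rose, from between 139.3 and 206.3 in control to between 223.5 and 263.2 in SCARKO pools, without overlap (log2 fold change 0.51, limma adjusted p = 0.0020). The part of these shifts in the chaperone results was not tested. All 10 arrays had the same trimmed mean signal and medians of 36.4 to 37.6, and the ratio of 3′ to 5′ signal lay between 0.611 and 0.657 for Gapdh and between 1.16 and 1.32 for beta-actin.

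Heat shock proteins are chaperones, which hold, fold or refold other proteins. HSP70 proteins (Hspa genes) bind unfolded stretches in a cycle driven by ATP, DnaJ proteins (also called HSP40) deliver the client and start that cycle, and HSP110 proteins and other exchange factors reset it. HSP90 proteins finish the folding of clients that include the steroid receptors, small heat shock proteins (Hspb genes) keep unfolded clients from clumping, and the chaperonin of HSPD1 and HSPE1 folds proteins inside mitochondria. Heat shock factors switch on the inducible members through the heat shock element, whereas the chaperones of the endoplasmic reticulum (ER) answer to the unfolded protein response through the ER stress response element. The testis is rich in chaperones, several of which are made mainly in germ cells.

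Both elements can be read in the upstream sequences of the genes on which the results below turn. Windows of 250 bases before the transcription start were taken from RefSeq promoters on GRCm38.p6, where 49 of the 60 genes had an entry. The ER chaperone genes Hspa5 and Hsp90b1 and the inducible HSP70 gene Hspa1b are shown because probe sets of all 3 fell, and Hspe1 because it holds a heat shock element while its probe sets did not pass. Capitals mark the ER stress response element, CCAAT followed after any 9 bases by CCACG, and the core of the heat shock element, GAANNTTC, both searched on both strands.
Hspa5: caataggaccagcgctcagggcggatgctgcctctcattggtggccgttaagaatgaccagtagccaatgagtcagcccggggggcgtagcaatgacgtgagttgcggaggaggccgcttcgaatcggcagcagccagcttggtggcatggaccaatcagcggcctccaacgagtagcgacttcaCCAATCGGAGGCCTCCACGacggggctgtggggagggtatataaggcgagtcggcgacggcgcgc
Hsp90b1: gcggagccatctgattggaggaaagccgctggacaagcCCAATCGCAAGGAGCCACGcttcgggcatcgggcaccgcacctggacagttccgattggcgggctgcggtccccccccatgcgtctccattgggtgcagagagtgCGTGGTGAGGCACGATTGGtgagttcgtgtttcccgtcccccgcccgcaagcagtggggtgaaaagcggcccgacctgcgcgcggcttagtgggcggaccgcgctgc
Hspa1b: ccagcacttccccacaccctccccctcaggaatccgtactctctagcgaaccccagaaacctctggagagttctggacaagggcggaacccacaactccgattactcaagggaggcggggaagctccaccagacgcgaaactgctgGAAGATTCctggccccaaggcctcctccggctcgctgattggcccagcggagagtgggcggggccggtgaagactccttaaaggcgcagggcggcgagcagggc
Hspe1: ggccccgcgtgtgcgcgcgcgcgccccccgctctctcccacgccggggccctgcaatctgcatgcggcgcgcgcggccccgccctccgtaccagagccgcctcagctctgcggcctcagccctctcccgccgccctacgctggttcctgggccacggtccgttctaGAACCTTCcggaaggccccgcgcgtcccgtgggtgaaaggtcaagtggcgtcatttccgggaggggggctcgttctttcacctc
They lie at chr2:34771840-34772089 on the plus strand (Hspa5), chr10:86705445-86705694 on the minus strand (Hsp90b1), chr17:34959239-34959488 on the minus strand (Hspa1b) and chr1:55087898-55088147 on the plus strand (Hspe1). The ER stress response element occurred once in the Hspa5 window, 65 to 47 bases before the start, and at 2 places in that of Hsp90b1, once on each strand. Of the 49 member genes, 3 (6.12%) held it, Hspa5, Hsp90b1 and the ER co-chaperone gene Dnajc3, against 0.13% of 27025 genes with a promoter entry. The heat shock element core was found in 10 of the 49 genes (20.4%) against 7.73% of all genes. Those 10 were Dnaja1, Dnaja4, Dnajb6, Dnajc27, Hspa1a, Hspa1b, Hspb1, Hspb3, Hspd1 and Hspe1. A longer form, in which this core is followed after any 2 bases by another GAA, was found in Dnajb6, Hspd1 and Hspe1, against 0.514% of all genes. One window of Hspd1 shared 215 bases with that of Hspe1, because these neighbours are read in opposite directions from 1 promoter region. Their heat shock element matches are the same site read from opposite strands, so these counts hold it for both genes. Hspa1a and Hspa1b, whose windows are near-identical, also hold the same match. A match describes letters in the window and does not show binding.

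Between SCARKO and control, 7 of the 94 chaperone probe sets fell and none rose at an adjusted p under 0.05 by limma, fitted over all 13576 tested probe sets with the littermate pair as a block. The 7 lower calls made up 7.45% of the members, against 3.26% for all tested probe sets. The 0 higher calls stand against 1.93% of all probe sets, with 9 members positive at an unadjusted p under 0.05. Calls in either direction made up 5.19% of all tested probe sets. The difference between these shares was not tested. Taken by gene, each through its brightest tested probe set, 3 of 50 (6.0%) fell and none rose, with 4 positive at an unadjusted p under 0.05, against 3.52% and 2.17% of 7973 genes. The 7 probe sets belonged to 5 genes, namely Hsp90b1 and Hspa1b with 2 each, and Hspa5, Hspa4l and Dnajb2 with 1 each. Log2 fold changes, always SCARKO minus control, spanned -0.38 to 0.45 over the members. The upper end was a dim Dnaja4 probe set (1418592_at) whose control mean of 17.7 lies under the lowest tested mean signal of 19.3, so that it was tested only through its SCARKO values, and the next value was 0.38 (Dnajc1, 1420501_at, adjusted p = 0.29). Their median was -0.0079 against 0.014 for all tested probe sets, and 50 were negative and 44 positive. Among the members, 14 were lower and 5 higher in all 5 pairs. Over all tested probe sets, 18.5% went in the same direction in all 5 pairs.

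**Figure D1:**
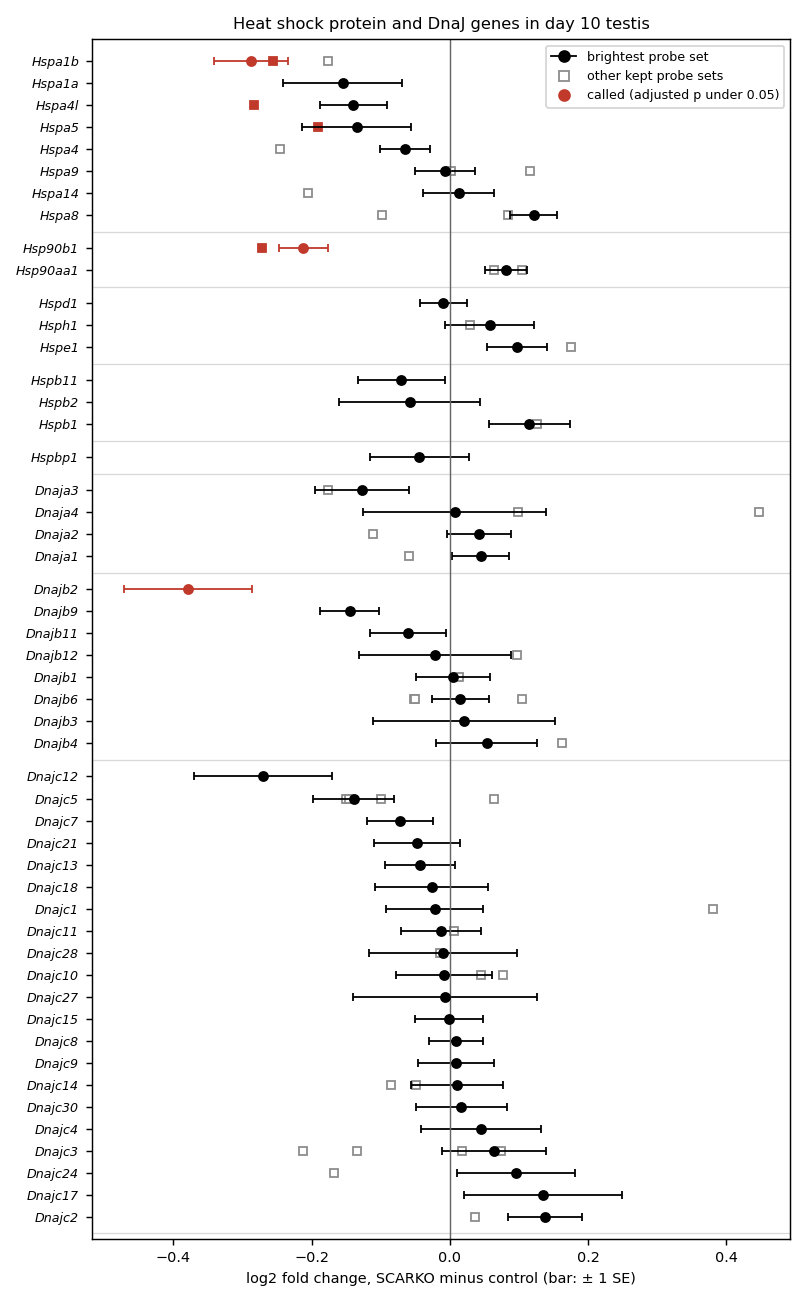
Log2 fold change (SCARKO minus control, horizontal axis) of the 50 tested heat shock protein and DnaJ genes, grouped by family with a row per gene. Circles give the brightest probe set with ± 1 SE, squares the other tested probe sets, and red fill an adjusted p under 0.05. All 7 red symbols lie left of 0, between -0.38 and -0.19.

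In the ER, both probe sets of Hsp90b1 fell. This gene encodes GRP94, the HSP90 of the ER, which folds secreted and membrane proteins such as integrins and insulin-like growth factors. Its brighter probe set (1415889_a_at) read 1046, 1184, 1179, 1226 and 1128 in control pools 1 to 5 and 893.9, 1041, 1040, 992.6 and 1008 in SCARKO pools 1 to 5. The groups did not overlap, although the highest SCARKO pool came close to the lowest control pool, and every pair showed the fall. Means were 1153 ± 69.1 in control and 995 ± 60.2 in SCARKO (SD, n = 5), so that the signal fell by 13.7%, or 0.21 as log2 (SE 0.04), at an adjusted p of 0.0063 by limma. Without the block of pairs this call ended (0.052). The second probe set (1438040_a_at) read 708.7, 749.9, 851.2, 678.4 and 776.9 in control pools and 652.5, 657.5, 638.1, 601.5 and 565.9 in SCARKO pools, again with no overlap. It fell by 0.27 on the log2 scale (SE 0.05, adjusted p = 0.015), a call that ended when pair 3 or pair 5 was left out (0.073 and 0.058). The 2 probe sets thus gave the same direction in all 5 pairs. Groups that did not overlap, with SCARKO lower, were found in 3 members, these 2 and 1 of Hspa1b, and in 2.48% of all tested probe sets (4.52% in either direction).

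Hspa5 encodes BiP (GRP78), the HSP70 of the ER and the sensor partner of the unfolded protein response. Its probe set 1427464_s_at read 733.2, 886.3, 943.4, 835.7 and 869.4 in control pools and 705.9, 813.8, 803.2, 707.9 and 705.6 in SCARKO pools. All 5 pairs were lower in SCARKO, while the groups overlapped through control pool 1. The fall was 0.19 on the log2 scale (SE 0.04, adjusted p = 0.028). The brighter probe set of the same gene (1416064_a_at) did not pass. It read 1124, 1177, 1308, 1168 and 1281 in control pools and 1212, 1168, 1094, 1202 and 871.7 in SCARKO pools, lower in 3 of 5 pairs, and the log2 fold change was -0.13 with an SE of 0.08 (adjusted p = 0.37). The probe sets of Hspa5 therefore disagreed about the call, and pair 5 held the largest drop in the brighter one, whose log2 fold change was -0.030 without that pair. The call of 1427464_s_at was lost on omitting pair 3, 4 or 5 (adjusted p = 0.11, 0.086 and 0.11) or the block (0.18).

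The DnaJ partners of BiP did not pass the test. Dnajb9 (ERdj4), which helps BiP hold the stress sensor IRE1 inactive, read 410.1, 479.3, 490.6, 461.2 and 440.6 in control pools and 373.2, 441.2, 426.9, 443.2 and 380.4 in SCARKO pools. It was lower in each pair, with a log2 fold change of -0.15 (SE 0.04) at an adjusted p of 0.078. Agreement of all 5 pairs, in either direction, was found in 18.5% of all tested probe sets. Dnajb11 (ERdj3), a co-chaperone that binds unfolded clients, had a log2 fold change of -0.06 (adjusted p = 0.58). Values were -0.02 for Dnajc1 (ERdj1), -0.01 for Dnajc10 (ERdj5), a reductase of misfolded proteins, and 0.06 for Dnajc3 (p58IPK), by their brightest probe sets, at adjusted p of 0.90, 0.96 and 0.68. Hsp90b1, Hspa5 and these 5 partners were grouped with the values known. The grouping leaves out the ER membrane protein Dnajb12 and is not a full list of ER members. By the brightest probe set, 6 of the grouped genes had a negative and 1 a positive log2 fold change, with a median of -0.060. Over all genes taken in this way, 3591 of 7973 were negative. Over all 16 tested probe sets of the grouped genes, 10 were negative and 6 positive, against 6177 negative and 7399 positive among all tested ones.

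Hspa1b is a heat-inducible cytosolic HSP70 gene, and 2 of its 3 probe sets fell. Probe set 1452318_a_at read 266.5, 284.0, 290.3, 327.2 and 325.4 in control pools and 220.0, 257.4, 246.9, 253.6 and 243.4 in SCARKO pools. No SCARKO pool reached the lowest control pool. Means were 299 ± 26.7 in control and 244 ± 14.6 in SCARKO (SD, n = 5). The signal fell by 18.1%, or 0.29 as log2 (SE 0.05), at an adjusted p of 0.0101 by limma. Probe set 1427126_at read 177.2, 158.3, 175.4, 189.5 and 182.0 in control pools and 142.9, 138.1, 144.6, 160.5 and 152.6 in SCARKO pools. It fell by 0.26 on the log2 scale (SE 0.05, adjusted p = 0.017), in every pair, with an overlap between control pool 2 and SCARKO pool 4. That call ended when pair 1, 3 or 5 was omitted (0.063, 0.0701 and 0.062). The remaining probe set (1427127_x_at, a type whose probes may also bind other transcripts) read 247 ± 25.2 and 218 ± 3.94 (SD, n = 5; log2 difference -0.18, adjusted p = 0.12) and was lower in all 5 pairs.

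Hspa1a is a near-identical neighbour of Hspa1b, and their upstream windows on chromosome 17 matched at 247 of 250 bases (98.8%). Its probe set read 113.4, 106.7, 129.4, 141.1 and 132.2 in control pools and 105.4, 126.5, 106.8, 109.1 and 109.8 in SCARKO pools. Pair 2 went up and the other 4 pairs went down, and the log2 difference was -0.16 with an SE of 0.09 (adjusted p = 0.34), or -0.26 without pair 2 (adjusted p = 0.065) and -0.10 without pair 4 (0.60). Because the copies are so alike, which of them the Hspa1b probe sets report is uncertain.

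Hspa4l and Hspa4 encode relatives of HSP110, exchange factors for HSP70, and Hspa4l is known for a role in germ cells and male fertility. Probe set 1449010_at of Hspa4l read 93.6, 123.7, 118.2, 111.9 and 106.8 in control pools and 87.4, 94.0, 96.0, 93.7 and 83.1 in SCARKO pools. It fell by 0.28 on the log2 scale (SE 0.07, adjusted p = 0.033) in 5 of 5 pairs, with an overlap through control pool 1. Its brighter probe set (1418253_a_at) was also lower in each pair, 275 ± 17.1 against 249 ± 7.33 (SD, n = 5), at a log2 fold change of -0.14 and an adjusted p of 0.13. The call of 1449010_at was lost on omitting pair 2, 3, 4 or 5, with adjusted p between 0.075 and 0.12, or the block (0.087). In the same pools the summed signal of 14 meiotic markers ranged from 2928 to 4235 in control and from 2624 to 3415 in SCARKO. Of the 14, 3 fell (21.4%, against 3.52% of all genes) and none rose, 13 were negative, 8 of them at an unadjusted p under 0.05, and the median log2 fold change was -0.23, against 0.015 for all genes. Their part in the result of Hspa4l was not tested. In whole testis, fewer cells of a type and less RNA per cell cannot be told apart. The probe sets of Hspa4 had log2 fold changes of -0.06 and -0.25 (adjusted p = 0.35 and 0.20).

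Dnajb2 was the 1 DnaJ gene called among 33, which had 61 tested probe sets, against calls for 5.19% of all tested probe sets. It encodes HSJ1, a co-chaperone that binds ubiquitin and passes HSP70 clients to the proteasome. Its probe set read 49.2, 54.2, 58.6, 60.9 and 53.9 in control pools and 34.5, 50.9, 38.8, 48.1 and 42.1 in SCARKO pools. The fall of 0.38 on the log2 scale (SE 0.09, adjusted p = 0.0399) was seen in all 5 pairs, smallest in pair 2, where SCARKO overlapped control pool 1. The call was marginal. It was lost on omitting pair 1, 3, 4 or 5, with adjusted p between 0.088 and 0.15, or the block (0.097).

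**Figure D2:**
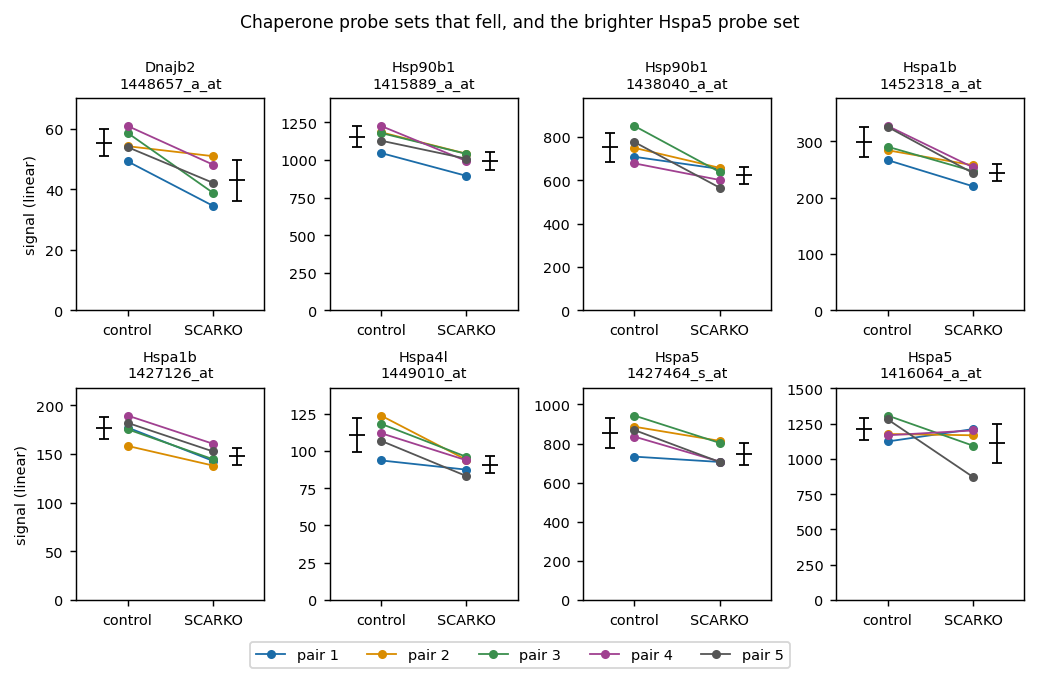
Signal (linear scale from 0) in the 5 littermate pairs for the 7 probe sets that fell and for the brighter Hspa5 probe set, which did not pass. Each coloured line joins the control and SCARKO pool of a pair, and black bars give mean ± SD of 5 pools. Every line slopes down in the first 7 panels, whereas in the last (1416064_a_at) only 3 of 5 do.

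For pair 5, where titles and descriptions agree on the genotype, all 7 called probe sets were lower in the SCARKO pool. Pair 5 was part of the fit that made these calls, so its direction is a description and not separate support. Leaving out pair 5 reduced the calls among members to 2 and leaving out pair 3 likewise to 2, in both cases 1415889_a_at of Hsp90b1 and 1452318_a_at of Hspa1b. These 2 probe sets were called whichever pair was left out, with adjusted p of 0.012 to 0.027 and 0.0072 to 0.049. Leaving out pair 4 left 4 calls.

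The cytosolic chaperones Hspa8, Hsp90aa1, Dnajb1 and Hsph1 did not pass the test. All their tested probe sets had positive log2 fold changes except 1420622_a_at of Hspa8. Hspa8 encodes HSC70, the everyday HSP70 of the cytosol. Its probe set 1455789_x_at read 2150, 2008, 1889, 2123 and 1957 in control pools and 2261, 2289, 2194, 2251 and 2020 in SCARKO pools, higher in each pair with overlapping groups. The log2 fold change was 0.12 (SE 0.03) and did not pass (adjusted p = 0.066). Of the other Hspa8 probe sets, 1420623_x_at gave 0.08 and 1420622_a_at -0.10, at adjusted p of 0.22 and 0.31. Hsp90aa1, the inducible cytosolic HSP90, had 3 probe sets with log2 fold changes of 0.06 to 0.10 and adjusted p of 0.15 to 0.37. The one that was higher in every pair (1438902_a_at) read 1614 ± 73.4 in control and 1708 ± 90.2 in SCARKO pools (SD, n = 5). Dnajb1, the classical heat-inducible HSP40, read 248.4, 274.4, 267.3, 267.4 and 297.9 in control pools and 273.4, 285.5, 260.8, 274.2 and 264.4 in SCARKO pools, a log2 difference of 0.0048 with an SE of 0.05 (adjusted p = 0.97). Hsph1, the inducible HSP110, had 0.06 (adjusted p = 0.66).

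Differences of change between related genes were taken within each pair, where array scaling cancels. They are a description, since the pairs of genes were chosen with the values known. The log2 change of Hsp90b1 minus that of Hsp90aa1 was -0.28, -0.26, -0.28, -0.43 and -0.22 in pairs 1 to 5, below 0 in all 5. That of Hspa1b minus Dnajb1 was -0.42, -0.20, -0.20, -0.40 and -0.25, also below 0 throughout, and that of Hspa1b minus Hspa8 ranged from -0.46 to -0.33. The brightest probe sets of Hspa5 and Hspa8 gave a mean of -0.26 ± 0.27 (SD, n = 5) with 4 of 5 pairs below 0.

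Hspb1 encodes HSP27, a small heat shock protein of stressed and contractile cells, and it varied more between litters than between genotypes. Its brighter probe set read 712.7, 961.0, 622.9, 645.1 and 622.6 in control pools and 855.7, 1185, 604.3, 711.9 and 585.3 in SCARKO pools. Pair 2 was highest in both groups and pair 1 second in both. The second probe set showed the same, with pair 2 at 814.8 in control and 924.9 in SCARKO. Log2 fold changes were 0.12 (SE 0.06) and 0.13 (SE 0.06), neither of which passed (adjusted p = 0.29 and 0.23). The summed signal of 12 markers of peritubular myoid cells, which are contractile, was 4550 in control pool 2 and 4399 in SCARKO pool 2, within the ranges of 4452 to 4924 and 4058 to 4690 over the pools. Among control pools, pool 2 had the lowest Sertoli cell sum (11110) and the highest sums of germ cells (5211) and macrophages (713.8). In SCARKO pool 2 these sums (10840, 4811 and 711.4) lay within the SCARKO ranges. The part of cell content in the values of Hspb1 was not tested. Of the other genes with Hspb symbols, Hspb11 had -0.07 (adjusted p = 0.57), and Hspbp1 had -0.04 (adjusted p = 0.78). Hspb1, Hsph1 and Dnajb12, an ER membrane co-chaperone, had the widest control ranges among member genes taken by their brightest tested probe set, at 0.63, 0.61 and 0.87 on the log2 scale. Other probe sets ranged more widely, up to 1.16 for 1420501_at of Dnajc1 and 0.985 for 1417095_a_at of Hspa14. The median control range was 0.31 for member probe sets and 0.34 for all tested ones.

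**Figure D3:**
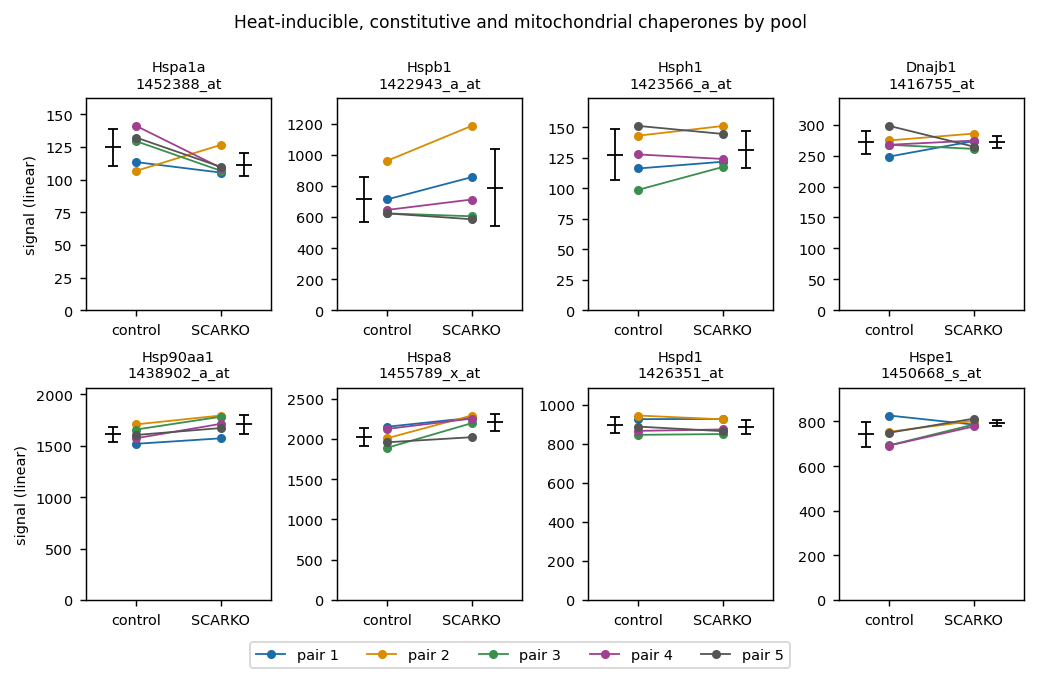
Signal (linear scale from 0) by littermate pair for 8 heat-inducible, constitutive and mitochondrial chaperones, none of which passed the test. Lines join the pools of a pair and black bars give mean ± SD of 5 pools. Pair 2 stands highest for Hspb1 in both groups (961.0 and 1185), while Hspa8 is higher in SCARKO in each pair with groups that overlap.

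Mitochondrial chaperones showed no call among 12 probe sets of 7 genes by limma, with 2 at an unadjusted p under 0.05. Over all tested probe sets 5.19% were called, so the absence of a call among 12 says little. The 7 genes, a choice that may not hold every mitochondrial member, were Hspd1, Hspe1, Hspa9, Dnaja3, Dnajc11, Dnajc15 and Dnajc30. Hspd1 (HSP60) read 894 ± 41.1 in control and 888 ± 35.9 in SCARKO pools (SD, n = 5; log2 fold change -0.0095, SE 0.03). Its co-chaperonin Hspe1 (HSP10) had probe sets at 0.10 (adjusted p = 0.23) and 0.17 (1422579_at, adjusted p = 0.057). The latter read 243.4, 276.6, 233.5, 244.1 and 319.2 in control pools and 294.1, 297.7, 257.2, 274.1 and 363.5 in SCARKO pools, higher in each pair although the groups overlapped. With the lowest 60% of probe sets left out it passed (adjusted p = 0.049). Hspa9 (mortalin), the HSP70 of mitochondria, had -0.0072 (adjusted p = 0.95), and its partner Dnaja3 (TID1) -0.13 (adjusted p = 0.32).

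The remaining DnaJ genes did not pass the test. Dnaja1, a farnesylated co-chaperone of HSP70 that mice need for normal spermatogenesis, read 928.5, 869.2, 786.0, 876.9 and 839.4 in control pools and 956.5, 937.2, 838.4, 810.6 and 894.0 in SCARKO pools (log2 fold change 0.04, SE 0.04, adjusted p = 0.59). Dnajc7 (TPR2), which handles clients between HSP70 and HSP90, had -0.07 (adjusted p = 0.43). The 2 Dnajc genes with the smallest p were Dnajc12 and Dnajc2. Dnajc12, a co-chaperone of aromatic amino acid hydroxylases, read 50.4 ± 7.44 in control and 41.7 ± 5.79 in SCARKO pools (SD, n = 5), lower in all 5 pairs, at a log2 fold change of -0.27 and an adjusted p of 0.15. Dnajc2, a ribosome-bound DnaJ protein that works with HSPA14, had 0.14 (adjusted p = 0.17), and Hspa14 had 0.01 (adjusted p = 0.92). None of the 38 Dnajc probe sets passed by limma (3 had an unadjusted p under 0.05), against 5.19% of all tested probe sets, and 21 were negative.

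No probe set of 10 member genes reached the tested signals: Dnajb5, Dnajb7, Dnajb8, Dnajb13, Dnajc5b, Hspa12b, Hspa1l, Hspb3, Hspb7 and Hspb8. Their 16 probe sets had signals between 0.3 and 25.5 over all pools and are not ordered here. Among them are Hspa1l, known from spermatids, Dnajb13, a part of the sperm tail, and Hspb7 of heart and muscle.

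Genes that work with these chaperones were taken from 7 lists, which held 81 tested genes outside the members. By limma 1 gene fell and 0 rose, while 8 negative and 7 positive values had an unadjusted p under 0.05, against 3.52% lower and 2.17% higher over all genes. Their median log2 fold change was 0.024, against 0.015 for all 7973 genes. The called gene was Bag2, an exchange factor that keeps the HSP70 ubiquitin ligase CHIP in check. It read 102.4, 116.2, 139.5, 137.7 and 122.6 in control pools and 87.0, 89.5, 109.1, 116.1 and 109.1 in SCARKO pools. It fell by 0.28 on the log2 scale (SE 0.06, adjusted p = 0.026) in every pair, with overlapping groups. Whichever pair was omitted, the call was lost, with adjusted p between 0.054 and 0.11, as it was with no block (0.20).

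In the other 6 lists none passed by limma. Among 13 co-chaperones of HSP70, Bag2 included, 2 had an unadjusted p under 0.05, the other being St13 (HIP), which stabilizes HSP70 bound to its client, at 0.15 (adjusted p = 0.12). Among 19 co-chaperones of HSP90, 3 did, led by Fkbp5, an androgen-responsive immunophilin of steroid receptor complexes, which read 255 ± 26.5 in control and 226 ± 9.57 in SCARKO pools (SD, n = 5; log2 fold change -0.17, adjusted p = 0.13). Of 8 subunits of the cytosolic chaperonin TRiC, which folds actin and tubulin, 7 were positive (median 0.046) and 2 had an unadjusted p under 0.05, with Tcp1 at 0.11 (adjusted p = 0.15). Of 5 prefoldin subunits 1 did, Vbp1 at -0.11 (adjusted p = 0.17), and of 8 mitochondrial proteases and disaggregases 2 did, with Afg3l2 at 0.15 (adjusted p = 0.17). The 1 tested gene around heat shock factors, Hsbp1, had 0.02 (adjusted p = 0.77).

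Other genes of ER folding and the unfolded protein response did not pass the test. Of 27, 11 were negative and 16 positive, with a median of 0.028, no gene passed by limma and 5 had an unadjusted p under 0.05. The smallest p belonged to Herpud1, an ER-associated degradation gene, at 0.23 (adjusted p = 0.062, higher in all 5 pairs), while its second probe set had 0.04. The next was Pdia5, a protein disulfide isomerase gene, at -0.22 (adjusted p = 0.072, lower in 4 of 5 pairs). Calr, encoding the chaperone calreticulin, had -0.15 (adjusted p = 0.13), and Canx, encoding its membrane-bound relative calnexin, 0.02 (adjusted p = 0.82). Hyou1 and Sil1, exchange factors of BiP, were counted among the co-chaperones of HSP70 and not in this list. They had -0.13 and -0.14 (adjusted p = 0.52 and 0.28). The second probe set of Hyou1 had -0.64 (SE 0.27, adjusted p = 0.20).

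**Figure D4:**
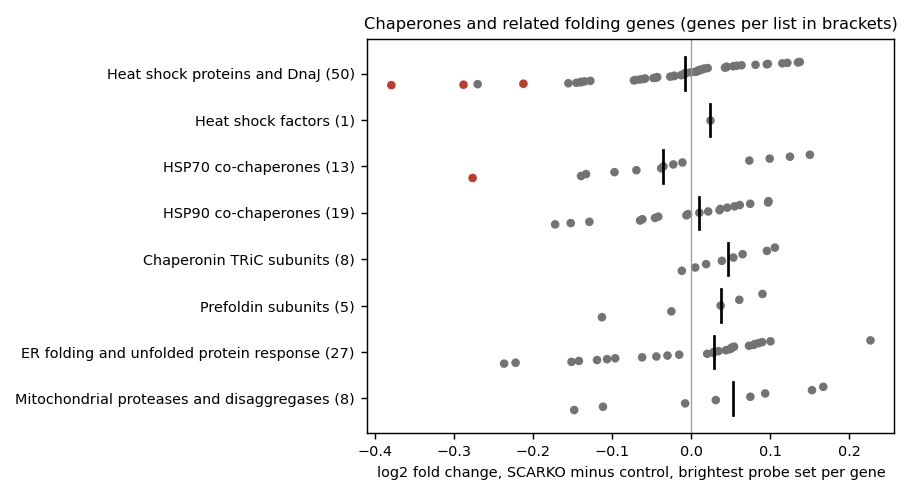
Log2 fold change (SCARKO minus control) of each gene by its brightest probe set, for the heat shock protein and DnaJ genes and for 7 lists of related folding genes, with the number of genes in brackets. Each dot is a gene, black bars are list medians and red marks an adjusted p under 0.05. List medians lie between -0.035 and 0.053, and 4 genes are red, all left of 0.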

How the data were processed

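Each array gave 1 intensity per probe set, deposited by the authors as a linear Affymetrix signal. MAS5 was named for 8 of the 10 arrays in the submitters' processing notes and no tool for pair 5, and the sources used here give neither its settings nor a genome build. Intensities have no counting depth, so the 5 pools per group limit the precision.

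Gene names came from the platform annotation, where, array controls aside, 20380 of 22626 probe sets had 1 gene, 691 several and 1555 none. The 60 member genes were found in the GRCm38.p6 gene table, and 2 Dnajc19 probe sets, which also list its pseudogene, were left out.

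Before taking log2, signals were floored at 1. The dimmest 40% by mean log2 (below a signal of 19.3) were dropped, and 13576 probe sets remained. Limma 3.58.1 in R 4.3.3 was fitted with the littermate pair as a block and an intensity trend, two-sided. P-values were adjusted by Benjamini-Hochberg across these 13576, and calls needed an adjusted p under 0.05. The fit was tested on simulated data. The pairing comes from the labels' protocols and the numbers in the titles; same-numbered pools deviated together, with correlations of 0.11 to 0.39 across probe sets. For pair 4 the correlation, 0.1093, hardly exceeded its highest with another number, 0.1091. No arrays were identical.

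Members and lists were chosen with earlier results of these data known. Named genes were all called members, the 2 with the smallest p in each family, the 5 brightest and 3 widest-ranging, a set of inducible and constitutive forms, and of each related list the called genes and that with the smallest p. Dnajb11, Dnajc1, Dnajc3, Dnajc10, Dnajc7, Hspa4, Hspa14, Calr, Canx, Pdia5, Hyou1, Sil1, Lpl, St13, Rhox5, Dnaja4 and Dnajc5 were added after their values were seen. Apart from the summed marker signals and the choice of the brightest probe sets and genes, signals of different probe sets were not compared as amounts. The sums add linear signals, so bright probe sets weigh most in them. Alternatives were no block, no filter, a filter of 60%, 16 added before log2, quantile normalization, no intensity trend, each pair left out, and groups from the descriptions. Protein sequences were not used here.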

Additional observations from a re-analysis of the deposited data

Results flagged for a closer look

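In groups of 5 pools, 2 of the 50 sets of values examined held a pool far from the other 4, and chance sets apart about 1 in 20. Control pool 2 read 961.0 for Hspb1 (1422943_a_at), against 712.7 for the next pool. SCARKO pool 2 read 126.5 for Hspa1a (1452388_at), against 109.8 for the next, and it was the 1 pool in which Hspa1a exceeded its control littermates.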

How the results depend on the processing

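The 7 calls stayed at 7 members with 16 added before log2 and after quantile normalization, the same probe sets in both, and at 6 lower and 1 higher (Hspe1) with the lowest 60% of probe sets left out, where Dnajb2 was no longer tested. They shrank to 3 without the replicate block (404 probe sets called in all, against 704 with it), 1 without the intensity trend (321 in all) and 0 without the filter on dim probe sets (38 in all, with 19 members at an unadjusted p under 0.05 by limma). The 1 call without the trend was 1427126_at of Hspa1b (adjusted p = 0.045 by limma). Leaving out 1 pair gave 2 to 6 lower calls among members, 0 higher, 0 to 1 lower call among related folding genes (Pdia5 without pair 1 and Fkbp5 without pair 2, Bag2 in neither), and 304 to 743 probe sets in all. Related folding genes had 0 lower calls without the block, without the filter and without the trend, against 1. All 7 kept their direction under each of these alternatives in which they were tested. Groups from the descriptions swap the labels of pairs 1 to 4 and keep those of pair 5. Signs that turn there follow largely from that swap and do not measure how firm a result is. With groups from the descriptions limma called 0 probe sets in all, 0 members (8 at an unadjusted p under 0.05) and 0 related genes, and signs turned, with log2 fold changes of 0.24 for Dnajb2, 0.15 for Hsp90b1 (1415889_a_at), 0.0882 for Hsp90b1 (1438040_a_at), 0.12 for Hspa1b (1452318_a_at), 0.15 for Hspa1b (1427126_at), 0.14 for Hspa4l, 0.0697 for Hspa5, 0.0603 for Dnajb9, -0.10 for Hspa8, -0.0997 for Hspe1 (1422579_at), 0.21 for Bag2, -0.00806 for Dnaja1, 0.13 for Dnaja3, -0.0737 for Dnajb1, 0.0504 for Dnajb12, 0.11 for Dnajc12, -0.0225 for Dnajc2, -0.0578 for Hsp90aa1, 0.0480 for Hspa1a, 0.00264 for Hspa9, -0.15 for Hspb1, 0.13 for Hspb11, -0.0504 for Hspe1 (1450668_s_at), -0.0832 for Hsph1. Without pair 1, 2 or 4 the log2 fold change of Dnajb1 was -0.029, -0.0083 and -0.0030, that of Dnajb12 was 0.016 without pair 1 and 0.056 without pair 4, and that of Hspa9 was 0.019 without pair 4, none of them called. Over the 5 omissions these ranged from -0.029 to 0.049 for Dnajb1, -0.115 to 0.056 for Dnajb12 and -0.027 to 0.019 for Hspa9. Probe sets near the lowest tested signal, such as 1 each of Dnaja4 and Dnajb12, give little precision.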

Other observations

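Probe sets of a gene did not always move together. Of 29 member genes with more than 1 tested probe set, 14 had log2 fold changes of both signs. Dnaja4, an inducible co-chaperone of HSP70, had 0.45 at its dimmest tested probe set (1418592_at, 17.7 ± 3.49 in control and 24.0 ± 3.54 in SCARKO pools, SD, n = 5, adjusted p = 0.12), which was tested only through its SCARKO values, against 0.0072 and 0.098 at the others. Dnajc5, which encodes the cysteine string protein of secretory vesicles, had 4 probe sets from -0.15 to -0.099 and 1 at 0.064, none of which passed. The median log2 difference over the 94 member probe sets was 0.011, -0.016, -0.033, -0.054 and 0.00036 in pairs 1 to 5. The number of members that read lower in SCARKO was 44, 52, 52, 57 and 47 of 94 in the same order.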
